A study of Homo sapiens with 20 samples.

Results

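The fibrillar collagens described here are 8 genes, COL1A1, COL1A2, COL3A1, COL5A1, COL5A2, COL5A3, COL11A1 and COL27A1, taken by their gene identifiers from the 27864 genes of a gene-level RNA sequencing count table. The cells were SUM159PT, a triple-negative, mesenchymal-like human breast cancer cell line, and the study asked how loss of nicotinamide N-methyltransferase (NNMT), an enzyme that methylates nicotinamide, and growth as tumorspheres changed gene expression. The 20 libraries fell into 7 groups: KOd 3D, KOd 2D, KOs 3D, KOs 2D, wt 3D and wt 2D with 3 libraries each, and wt 2D in tumorsphere medium with 2. KOd cells were an oligoclonal pool in which 2 guide RNAs deleted exon 1 of NNMT. KOs cells were an oligoclonal pool made with 1 guide RNA at the transcription start site, and wt cells were not edited. Each pool mixed several clones. The 2D cultures were adherent, in Ham's F12 with 5% serum, insulin and hydrocortisone, and were harvested at 80% confluency. The 3D cultures were secondary tumorspheres, formed without attachment over 2 rounds of 6 days in DMEM/F12 with B27 and 20 ng/mL each of EGF and bFGF, with no serum listed. For wt 2D in tumorsphere medium, adherent cells at 50% confluency were moved to the tumorsphere medium and harvested at 80%. Attachment, medium, time in culture and the RNA kit changed together between 2D and 3D, so their effects cannot be told apart, except that the medium group holds the adherent format and changes the medium.

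Fibrillar collagens are secreted proteins whose alpha chains wind into a long triple helix. The procollagens are hydroxylated and folded in the endoplasmic reticulum, lose their propeptides outside the cell and then line up into fibrils that lysyl oxidases crosslink. Types I and III form most of the fibrils of connective tissue, types V and XI act in fibril nucleation and diameter, and type XXVII is best known from cartilage. In the breast, stromal fibroblasts are the main source of types I, III and V, and mesenchymal-like carcinoma cells can also transcribe these genes.

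RefSeq promoters on GRCh38.p14 were available for 4 of the 8 members, and 3 are shown because of how their genes responded to 3D culture. COL5A3 and COL27A1 rose in tumorspheres of every genotype, and COL5A1 had the smallest rise in wt cells. Each line holds the 250 bases before the annotated start, on the gene's own strand, and capitals mark motifs found on either strand. The motif CCAAT is read by nuclear factor Y. The motif GGGCGG is the core of an Sp1 site and reads CCGCCC when it lies on the other strand. The TATA box was searched as TATAAA.
COL5A3: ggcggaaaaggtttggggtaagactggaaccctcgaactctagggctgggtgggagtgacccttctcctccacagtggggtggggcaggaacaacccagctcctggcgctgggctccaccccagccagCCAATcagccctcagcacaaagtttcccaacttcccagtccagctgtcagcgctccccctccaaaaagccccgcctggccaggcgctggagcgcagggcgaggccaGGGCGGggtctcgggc
COL27A1: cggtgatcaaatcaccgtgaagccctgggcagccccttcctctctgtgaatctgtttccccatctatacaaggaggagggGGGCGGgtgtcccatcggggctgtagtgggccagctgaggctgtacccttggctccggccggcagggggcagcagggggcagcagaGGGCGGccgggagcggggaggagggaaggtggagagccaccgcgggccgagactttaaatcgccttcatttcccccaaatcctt
COL5A1: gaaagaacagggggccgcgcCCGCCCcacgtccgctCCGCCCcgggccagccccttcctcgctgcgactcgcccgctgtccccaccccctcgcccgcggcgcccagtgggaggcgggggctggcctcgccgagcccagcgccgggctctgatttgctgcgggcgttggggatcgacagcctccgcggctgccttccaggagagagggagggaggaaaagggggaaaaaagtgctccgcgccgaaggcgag
The COL5A3 window (chr19:10010505-10010754, minus strand, 66% G and C) held 1 CCAAT, 122 bases before the start, and 1 GGGCGG, 16 bases before it. The COL27A1 window (chr9:114155287-114155536, plus strand, 64.4% G and C) held 2 GGGCGG matches and no CCAAT. Its start lies inside the span that RefSeq gives for the gene. The COL5A1 window (chr9:134641553-134641802, plus strand, 74% G and C) also held 2 GGGCGG matches, at 230 and 214 bases before the start. Among 35116 RefSeq promoter windows of the same length, 32% held CCAAT, 42.6% held GGGCGG and 10.7% held TATAAA, which none of the 3 windows held. These matches describe letters only.

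Library totals ran between 26396964 and 43744817 counts, and the 6 libraries labelled KOs were the deepest, each with at least 37316513. Levels within a gene are given as CPM, the count scaled to library size with TMM factors. NNMT read 4.65 to 5.64 CPM in KOd 3D and 4.39 to 4.64 in KOd 2D. The libraries labelled KOs held 82.9 to 86.4 CPM of NNMT in 3D and 76 to 130 in 2D, against 79.5 to 130 in wt 3D and 102 to 128 in wt 2D, and adherent tumorsphere medium gave 226 and 247. NNMT mRNA thus separated KOd from wt but did not mark the libraries labelled KOs as a knockout. The line's markers VIM, CD44 and AXL were present in all libraries, with a summed level of 3660 to 7030 CPM, against 54.3 to 99.1 for ESR1, PGR and ERBB2. The share of counts on ribosomal RNA genes was 0.926 to 2.7% where the label was KOs, against 2.82 to 8.46% in KOd and wt. Its part in the results was not tested. Within their groups 3 libraries stood apart: the A library of labelled KOs 2D, and the C library of both KOd 3D and wt 3D. These C libraries held 5.33% and 8.46% ribosomal RNA counts, where the A and B libraries of the same groups held 2.82 to 5.32%. The 3 libraries were set by name, not by a numeric cutoff, and each held the most COL3A1 of its group. The labels do not say that replicates came from separate cultures, so p-values measure only the spread between these libraries. In bulk RNA, a smaller share of expressing cells and less RNA per cell cannot be told apart.

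COL1A1 and COL1A2 encode the chains of type I collagen, the most abundant fibrillar collagen of connective tissue. COL1A1 (RefSeq on GRCh38.p14, as for all members, chr17:50184101-50201631, minus strand) had the highest mean level per length of the members in each wild-type group and was low in both pools. It read 84.2, 73.6 and 75.3 CPM in KOd 3D, against 29.6, 33.7 and 22.9 in KOd 2D. The libraries labelled KOs gave 29.4, 31.8 and 34.1 CPM in 3D, against 28.3, 17.1 and 16.6 in 2D. In wild-type cells the levels were 4045, 3517 and 5437 CPM in 3D, 108 and 109 in adherent tumorsphere medium, and 388, 447 and 591 in 2D. The wt 3D libraries lay above all others, and all 8 wild-type libraries lay above all 12 pool libraries. The 3D and 2D ranges did not overlap in any genotype.

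COL1A1 rose in 3D in each genotype by edgeR's quasi-likelihood test with Benjamini-Hochberg adjustment over the 16323 genes tested. The log2 fold change was 1.43 ± 0.21 (SE, here and below) in KOd (adjusted p = 9e-06), 0.62 ± 0.21 in cells labelled KOs (adjusted p = 0.013) and 3.19 ± 0.22 in wt, a 9.12-fold increase (adjusted p = 1.1e-09). The call in cells labelled KOs was lost without their 2D replicate B (0.50, adjusted p = 0.066) or C (0.48, adjusted p = 0.069). Tumorsphere medium on attached wt cells went the other way, with a fall by 2.13 on the log2 scale (SE 0.24, edgeR adjusted p = 4.2e-06). Both pools held less COL1A1 than wt in both cultures. KOd was 55.8-fold lower in 3D (log2 fold change -5.80 ± 0.24, edgeR adjusted p = 1.4e-11) and 16.5-fold lower in 2D (-4.05 ± 0.23, adjusted p = 5.2e-10). Cells labelled KOs were 136-fold lower in 3D (-7.09 ± 0.26, edgeR adjusted p = 1.2e-12) and 22.9-fold lower in 2D (-4.52 ± 0.23, adjusted p = 1e-10).

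COL1A2 (chr7:94394895-94431227, plus strand), the partner chain, was at more than trace level only in wt 3D, where it read 32.8, 27.1 and 48.4 CPM (1016, 806 and 1390 counts). Every other library held 0 to 9 counts. The summed counts were 15 in KOd 3D and 0 in KOd 2D, 16 in labelled KOs 3D and 1 in labelled KOs 2D, 8 in adherent tumorsphere medium and 17 in wt 2D. COL1A2 was 166-fold higher in wt 3D than in wt 2D (log2 fold change 7.37 ± 0.44, edgeR adjusted p = 1.2e-09). In tumorspheres KOd was 217-fold lower than wt (-7.76 ± 0.45, edgeR adjusted p = 3.6e-09), and cells labelled KOs were 271-fold lower (-8.08 ± 0.45, adjusted p = 6.2e-10). Without labelled KOs 3D replicate B, which held 9 of the 16 counts, the log2 value was -8.69. With 3 counts over the group as the floor for a count of 0, and the 15 counts taken as exact, KOd 3D was at least 4.69-fold above KOd 2D. The same floor, with the 17 counts of wt 2D taken as exact, makes KOd 2D at least 6.17-fold lower than wt 2D. For cells labelled KOs the ratio of 3D to 2D was 14.8 (95% interval 2.29 to 619, for counting error only), and the ratio of labelled KOs 2D to wt 2D was 0.041 (95% interval 0.00098 to 0.261). The 1 count of labelled KOs 2D is in replicate A, and without that library the fitted log2 values, which then depend on the prior count, were 5.07 for labelled KOs 3D against 2D and -5.78 for labelled KOs 2D against wt 2D. These 4 comparisons passed the edgeR test (adjusted p = 0.0069, 0.0053, 0.018 and 0.0058, in the order given). The call for labelled KOs 3D against 2D was lost without the 2D replicate B or C (adjusted p = 0.059 and 0.058) or the 3D replicate B (0.078).

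Per length, COL1A1 exceeded COL1A2 in every group. The ratio of RPKM, which is CPM divided by the deposited gene length in kilobases, was 113, 119 and 102 in wt 3D. From summed counts it was 439 in KOd 3D, 225 in labelled KOs 3D, 654 in adherent tumorsphere medium and 2020 in wt 2D. The medium value rests on 8 COL1A2 counts and was 384 in replicate A and 2540 in replicate B. With COL1A2 set at the floor, KOd 2D gave at least 759, and labelled KOs 2D, with 1 COL1A2 count, is given no ratio. The ratio was smallest in wt 3D, where both chains were highest.

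**Figure D1:**
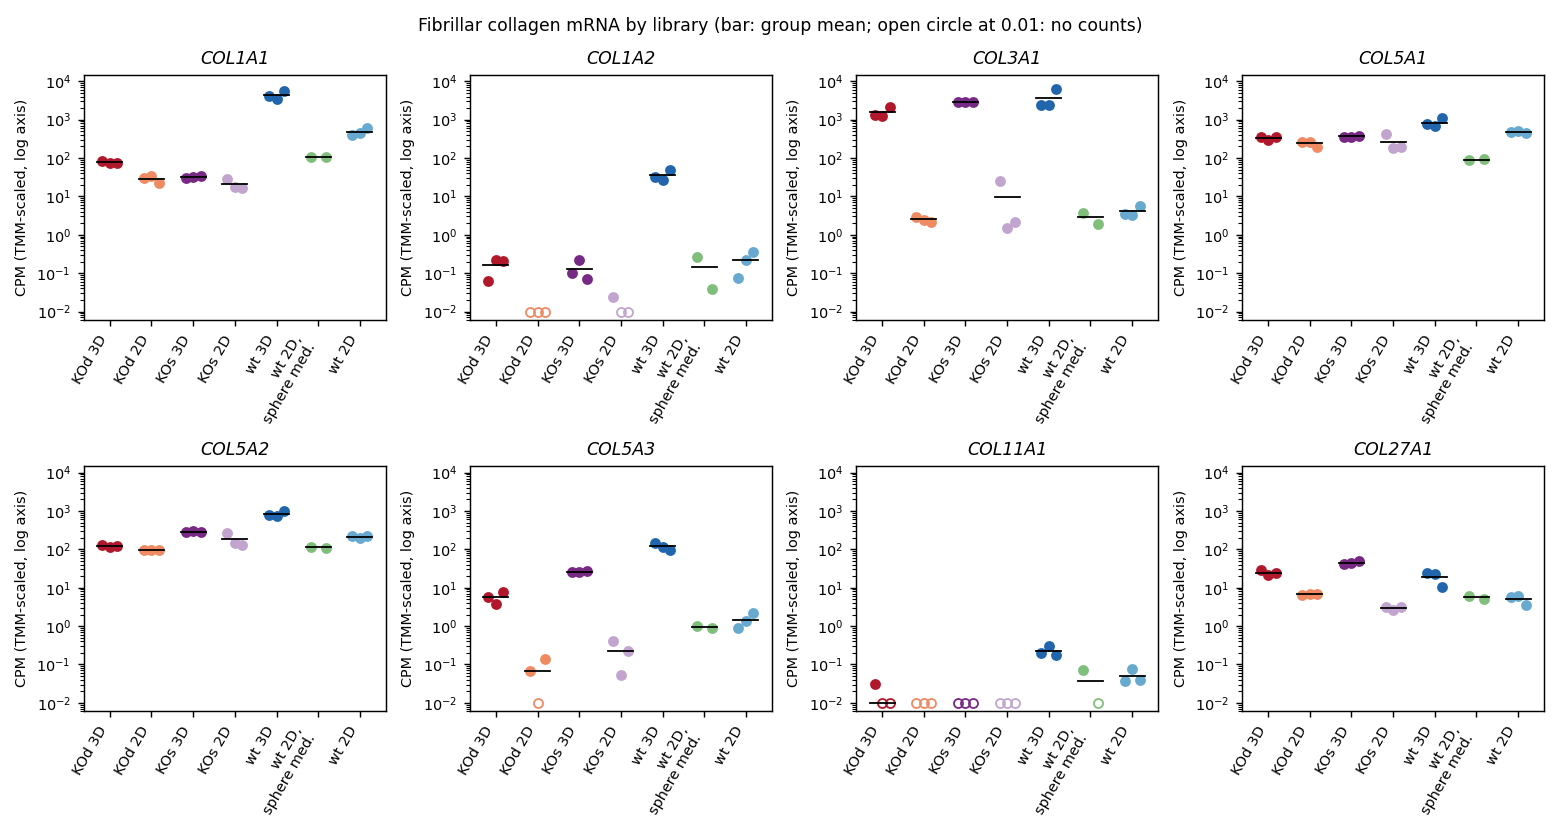
CPM of each of the 8 fibrillar collagen genes (log axis) in the 7 groups, with 1 point a library, a bar at the group mean and an open circle at 0.01 for a library with no counts. KOs names the groups as labelled. COL1A1 and COL1A2 peaked in wt 3D, COL3A1 was between 1231 and 6431 CPM in all 9 tumorsphere libraries, and COL11A1 stayed at or under 0.302 CPM in all libraries.

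COL3A1 (chr2:188974373-189012746, plus strand) encodes the single chain of type III collagen, which forms fibrils together with type I. It had the largest culture response of the members and was abundant in tumorspheres of every genotype. The levels were 1359, 1231 and 2100 CPM in KOd 3D, against 2.92, 2.48 and 2.17 in KOd 2D. The libraries labelled KOs held 2826, 2863 and 2913 CPM in 3D, against 25.5, 1.5 and 2.21 in 2D. Wild-type cells held 2443, 2353 and 6431 CPM in 3D, 3.78 and 1.96 in adherent tumorsphere medium, and 3.44, 3.28 and 5.77 in 2D. No 3D library overlapped any adherent library, and the lone adherent library above 6 CPM was labelled KOs 2D replicate A.

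COL3A1 rose 619-fold in KOd 3D against 2D (log2 fold change 9.27 ± 0.92, edgeR adjusted p = 1.1e-07). It rose 291-fold in cells labelled KOs (8.19 ± 0.86, edgeR adjusted p = 3.2e-07) and 901-fold in wt (9.82 ± 0.93, adjusted p = 7.6e-08). Without labelled KOs 2D replicate A the second of these became 10.59 on the log2 scale, and without wt 3D replicate C the third became 9.17. Tumorsphere medium alone gave a log2 fold change of -0.52 ± 0.91 (edgeR adjusted p = 0.71), so a change of COL3A1 with the medium was not detectable at this spread. In tumorspheres the difference from wt did not pass the test for KOd (-1.26 ± 0.63, edgeR adjusted p = 0.14) or for cells labelled KOs (-0.38 ± 0.62, adjusted p = 0.62). The same-lettered libraries of KOd 3D and wt 3D deviated together, and with the letter as a block in a fit of these 2 groups COL3A1 fell by 1.12 in KOd (edgeR adjusted p = 0.0023). Without the 3 libraries that stood apart it fell by 0.89 (adjusted p = 6.9e-05), while the value for labelled KOs 3D turned to 0.27 (adjusted p = 0.093). In 2D the log2 fold change against wt was -0.72 ± 0.81 for KOd (edgeR adjusted p = 0.5) and 1.24 ± 0.73 for cells labelled KOs (adjusted p = 0.16). Without the 3 libraries these became -0.71 (adjusted p = 0.0073) and -1.16 (adjusted p = 0.00034), so the sign of the labelled KOs value rested on the 2D replicate A. Each of these 3 libraries held the most COL3A1 of its group. Leaving them out narrows the spread of this gene by construction, so the COL3A1 calls gained without them are not separate support.

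COL5A1, COL5A2 and COL5A3 encode the chains of type V collagen, a minor component that sits inside type I fibrils and limits their diameter. COL5A1 (chr9:134641803-134844843, plus strand), whose chain is in nearly all type V molecules, has the GC-rich promoter window printed above. It read 347, 294 and 361 CPM in KOd 3D, against 267, 265 and 198 in KOd 2D. In libraries labelled KOs it read 360, 349 and 385 CPM in 3D, against 416, 182 and 197 in 2D. It read 775, 671 and 1080 CPM in wt 3D, 89.5 and 91.6 in adherent tumorsphere medium, and 475, 504 and 438 in wt 2D. The 3D and 2D ranges overlapped only for cells labelled KOs, where 2D replicate A lay above all 3 tumorsphere libraries.

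The rise of COL5A1 in 3D passed the test in wt (log2 fold change 0.83 ± 0.24, edgeR adjusted p = 0.005). In KOd it was 0.46 ± 0.24 and in cells labelled KOs also 0.46 ± 0.24, and neither passed (edgeR adjusted p = 0.094 in each). Without labelled KOs 2D replicate A the values were 0.46 in KOd and 0.95 in cells labelled KOs, and both passed (edgeR adjusted p = 0.0073 and 4.7e-05). That library held the most COL5A1 of its group, so leaving it out narrows the spread of this gene by construction. The calls gained without it are not separate support. In tumorsphere medium attached wt cells fell by 2.38 on the log2 scale, to 5.22-fold below wt 2D, the largest fall of a member with the medium (SE 0.29, edgeR adjusted p = 7.8e-06). Both pools were below wt. In 3D the log2 fold changes were -1.33 ± 0.24 for KOd and -1.21 ± 0.24 for cells labelled KOs (edgeR adjusted p = 0.00029 and 0.00032). In 2D they were -0.96 ± 0.24 and -0.83 ± 0.24 (edgeR adjusted p = 0.003 and 0.0066). Fitted with wt 2D alone, the labelled KOs 2D value was -0.85 and did not pass (adjusted p = 0.059).

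COL5A2 (chr2:189031898-189441111, minus strand) lies 19151 bases from COL3A1 on the opposite strand. Its levels were 132, 117 and 122 CPM in KOd 3D, against 97.3, 94.7 and 94.0 in KOd 2D. They were 283, 295 and 290 CPM in labelled KOs 3D, against 262, 147 and 133 in labelled KOs 2D. Wild-type cells held 785, 753 and 1026 CPM in 3D, 113 and 112 in adherent tumorsphere medium, and 224, 201 and 218 in 2D. The 3D range lay above the 2D range in each genotype. Its 7 group means spanned 95.3 to 855 CPM, where those of its neighbour COL3A1 spanned 2.52 to 3743.

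COL5A2 rose in wt 3D (log2 fold change 2.00 ± 0.18, edgeR adjusted p = 4.7e-08) and in labelled KOs 3D (0.68 ± 0.18, adjusted p = 0.0027). Fitted with labelled KOs 2D alone, the second value was 0.69 and did not pass (adjusted p = 0.05). In KOd the value of 0.37 ± 0.18 did not pass (edgeR adjusted p = 0.072), and without the 3 libraries that stood apart it was 0.38 and passed (adjusted p = 4.9e-05). It fell by 0.93 with tumorsphere medium (SE 0.20, edgeR adjusted p = 0.0019). Against wt 3D the log2 fold change was -2.79 ± 0.19 for KOd and -1.56 ± 0.18 for cells labelled KOs (edgeR adjusted p = 4.3e-09 and 9.2e-07). In 2D it fell by 1.17 in KOd (SE 0.18, edgeR adjusted p = 4.1e-05). For labelled KOs 2D the value was -0.25 ± 0.18 (edgeR adjusted p = 0.25), and -0.61 without the 2D replicate A, which passed (adjusted p = 8.5e-05). Labelled KOs 2D replicate A held the most COL5A2 of its group, so leaving it out narrows the spread of this gene by construction. The COL5A2 calls gained without that library are not separate support.

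COL5A3 (chr19:9959561-10010504, minus strand), the least widely expressed type V chain, carried the CCAAT-holding promoter printed above and was nearly silent in adherent cells. It read 5.87, 3.71 and 7.95 CPM in KOd 3D, against 0.0686, 0 and 0.138 in KOd 2D (2, 0 and 4 counts). It read 25.3, 26.3 and 27.4 CPM in labelled KOs 3D, against 0.406, 0.0537 and 0.227 in labelled KOs 2D. In wild-type cells it read 143, 117 and 97.4 CPM in 3D, 0.992 and 0.904 in adherent tumorsphere medium, and 0.878, 1.34 and 2.16 in 2D. The 3 tumorsphere groups were fully separated from each other and from all adherent libraries, in the order wt, labelled KOs, KOd.

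Despite these unequal levels, the log2 fold change of COL5A3 with 3D was 6.32 ± 0.55 in KOd, 6.78 ± 0.40 in cells labelled KOs and 6.35 ± 0.34 in wt (edgeR adjusted p = 1.9e-08, 3e-10 and 6.2e-11). The difference in response from wt was -0.04 ± 0.91 for KOd and 0.43 ± 0.56 for cells labelled KOs (edgeR adjusted p = 0.99 and 0.59), so a difference in response was not detectable with these standard errors. COL5A3 was below wt in every comparison of a pool. In 3D the log2 fold change was -4.35 ± 0.30 for KOd and -2.17 ± 0.26 for cells labelled KOs (edgeR adjusted p = 4.6e-09 and 1.7e-06). In 2D it was -4.32 ± 0.67 and -2.61 ± 0.49 (edgeR adjusted p = 4.9e-05 and 0.00026). The KOd 2D values rest on 6 counts: without its replicate C the 3D response was 7.24 and the 2D value against wt was -5.24 on the log2 scale. Without labelled KOs 2D replicate A, the 2D value against wt was -3.35 and the 3D response of cells labelled KOs was 7.54.

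COL11A1 (chr1:102876473-103108522, minus strand), a type XI chain of cartilage fibrils that is often high in carcinoma stroma, was below the filter on low counts and was not tested. Its counts were 6, 9 and 5 in wt 3D, 2 and 0 in adherent tumorsphere medium, and 1, 2 and 1 in wt 2D. In KOd 3D they were 1, 0 and 0, and all 9 other pool libraries held 0. The 3 wt 3D libraries were the highest, at 0.174 to 0.302 CPM. A count of 0 allows up to 0.0695 to 0.118 CPM, depending on the depth of the library.

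COL27A1 (chr9:114154098-114312511, plus strand), a fibrillar chain of developing cartilage, had a higher mean in the tumorspheres of both pools than in wt 3D, unlike the other members. It read 28.8, 21.2 and 24.3 CPM in KOd 3D, against 6.48, 6.94 and 6.93 in KOd 2D. It read 41.1, 44.1 and 50.3 CPM in labelled KOs 3D, against 3.15, 2.58 and 3.09 in labelled KOs 2D. Wild-type cells held 24.0, 22.2 and 10.6 CPM in 3D, 6.03 and 5.23 in adherent tumorsphere medium, and 5.60, 6.19 and 3.61 in 2D. All labelled KOs 3D libraries lay above all others, and all labelled KOs 2D libraries lay below all others. The KOd 3D and wt 3D ranges overlapped.

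COL27A1 rose 3.65-fold in KOd 3D (log2 fold change 1.87 ± 0.24, edgeR adjusted p = 2.1e-06), 15.3-fold in labelled KOs 3D (3.94 ± 0.26, adjusted p = 1.1e-09) and 3.68-fold in wt 3D (1.88 ± 0.24, adjusted p = 3e-06). It did not pass for tumorsphere medium (0.13 ± 0.28, edgeR adjusted p = 0.76). Against wt, KOd gave 0.39 ± 0.22 in 3D and 0.40 ± 0.25 in 2D, and neither passed (edgeR adjusted p = 0.2 in each). Without the 3 libraries that stood apart the KOd 2D value was 0.40 and passed (edgeR adjusted p = 0.042). Among these libraries, wt 3D replicate C held the least COL27A1 of its group. Leaving it out narrows the spread of this gene, so that call is not separate support. Cells labelled KOs were 2.38-fold higher than wt in 3D (1.25 ± 0.23, edgeR adjusted p = 0.00013) and 1.75-fold lower in 2D (-0.80 ± 0.25, adjusted p = 0.013). The 2D call was lost without wt 2D replicate B (-0.65, adjusted p = 0.069) and with limma-voom (-0.77, adjusted p = 0.083).

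**Figure D2:**
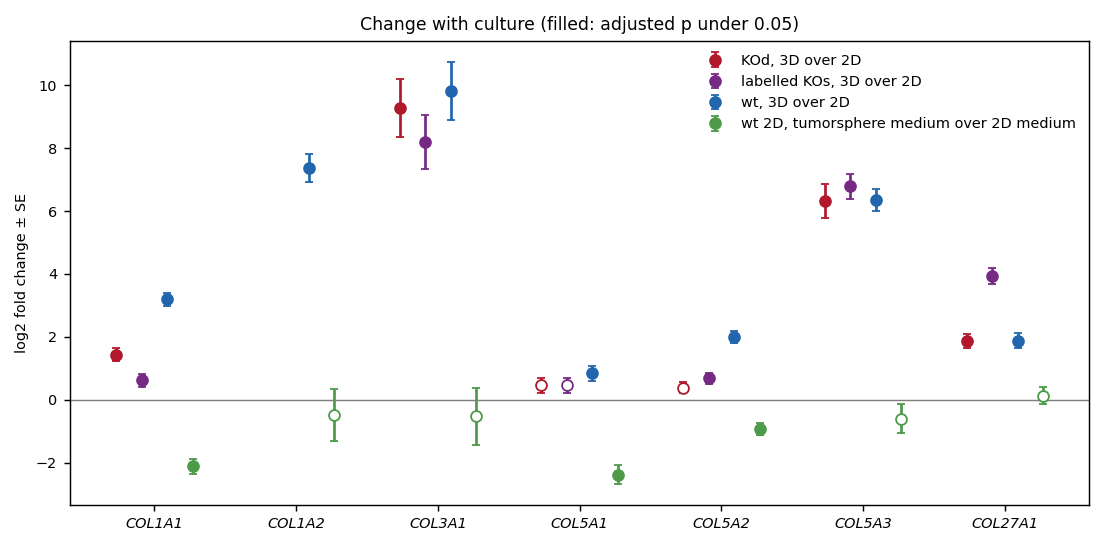
Log2 fold change (vertical axis) of the 7 tested genes for 3D over 2D in KOd, in cells labelled KOs and in wt, and for tumorsphere medium over 2D medium in attached wt cells, with bars for ± SE and filled points for an adjusted p under 0.05. COL1A2 is drawn only where both groups hold more than 1 count. COL3A1 and COL5A3 lie above 6 for 3D in every genotype, and COL1A1, COL5A1 and COL5A2 have filled points below 0 for the medium.

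Counted over the members, 5 of the 7 tested rose and 0 fell in KOd 3D against 2D, where 35.2% of all genes tested rose and 31.2% fell. In cells labelled KOs 6 of 7 rose and 0 fell, where 32.9% of all genes rose and 32.1% fell. In wt 7 of 7 rose, where 33.3% of all genes rose and 30.4% fell. The median log2 fold change of the 7 was 1.87 in KOd, 3.40 in cells labelled KOs (3.89 with COL1A2 at its count ratio) and 3.19 in wt. Over all genes tested the median was 0.07, 0.02 and 0.04 in these comparisons. COL5A1 was the member below the threshold in both pools, and COL5A2 in KOd.

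With tumorsphere medium on attached wt cells 0 members rose and 3 fell (COL1A1, COL5A1 and COL5A2), where 15.6% of all genes rose and 16.4% fell. The median was -0.61 for the members and 0.00 for all genes. Set against that medium group, wt 3D had 7 of 7 members higher, where 32.8% of all genes were higher and 30.0% lower. The log2 fold changes of wt 3D over wt 2D in tumorsphere medium were 5.32 ± 0.29 for COL1A1 (39.8-fold), 10.34 ± 1.16 for COL3A1, 3.22 ± 0.30 for COL5A1, 2.93 ± 0.22 for COL5A2, 6.96 ± 0.43 for COL5A3 and 1.75 ± 0.28 for COL27A1. COL1A2 gave 7.86 ± 0.56, which was 9.71 without medium replicate A and 7.13 without replicate B, each leaving 1 medium library whose spread is assumed to be that of the other groups. COL3A1 gave 9.70 without wt 3D replicate C. The 7 adjusted p-values lay between 9.7e-11 and 3.2e-05 by edgeR. COL1A1, COL5A1 and COL5A2 thus fell with the medium and were higher in wt 3D than in either adherent wt group.

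Against wt 3D, 5 of the 7 members fell and 0 rose in KOd 3D, where 16.5% of all genes rose and 17.5% fell, with a median of -2.79 for the members and 0.00 for all genes. In labelled KOs 3D 5 fell and COL27A1 rose, where 28.5% of all genes fell and 27.8% rose, with medians of -1.56 and 0.02. Against wt 2D, 5 fell and 0 rose in KOd 2D, where 22.1% of all genes rose and 22.5% fell, and the medians were -1.17 and 0.01. In labelled KOs 2D 5 fell and 0 rose, where 27.7% of all genes rose and 25.5% fell, and the medians were -0.83 and 0.06. That last count was 3 when only those 2 groups were fitted. COL1A1, COL1A2, COL5A1 and COL5A3 fell in all 4 of these comparisons, which share their wt libraries within a culture.

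**Figure D3:**
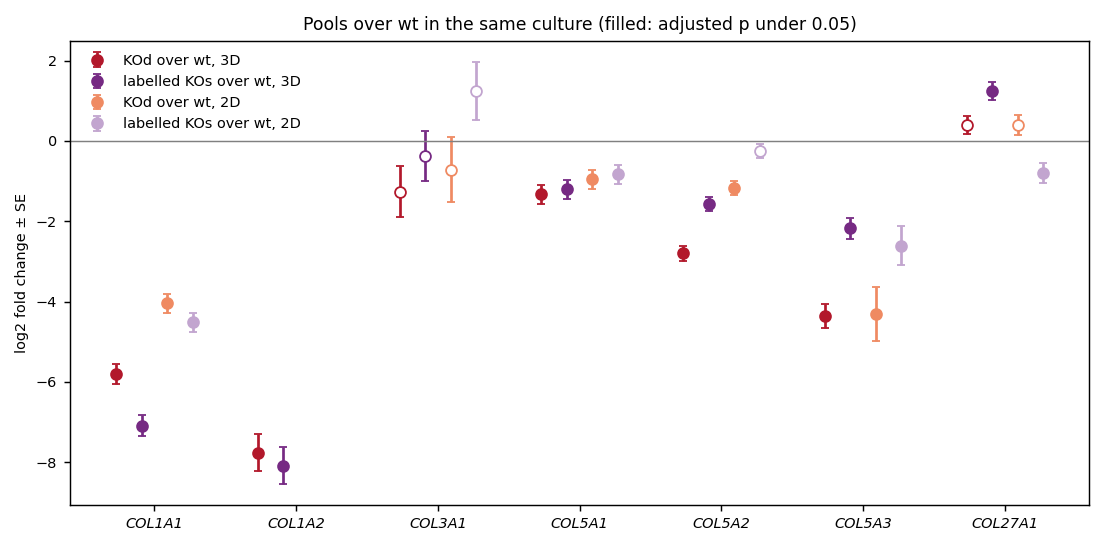
Log2 fold change (vertical axis) of the 7 tested genes for each pool over wt in the same culture, with bars for ± SE and filled points for an adjusted p under 0.05. COL1A2 is drawn only for 3D, since the pools held 0 or 1 count of it in 2D. COL1A1 lies below -4 in all 4 comparisons, and COL27A1 lies above 0 in all but labelled KOs 2D.

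The culture responses themselves differed from that of wt for some members, by an interaction term in the same fit. The response in KOd minus that in wt was -1.76 ± 0.29 for COL1A1 and -1.62 ± 0.25 for COL5A2 on the log2 scale (edgeR adjusted p = 0.00019 and 0.00011), 2 of 7 members where 14.7% of all genes had a lower response and 14.4% a higher one. In cells labelled KOs the differences were -2.57 ± 0.29 for COL1A1 and -1.32 ± 0.25 for COL5A2 (edgeR adjusted p = 4.3e-06 and 0.00058), 2 of 7 where 19.0% of all genes were lower. COL27A1 differed there by 2.06 ± 0.34 (edgeR adjusted p = 0.00018), 1 of 7 where 17.9% were higher. For COL5A1 the difference was -0.38 ± 0.33 in KOd and -0.37 ± 0.33 in cells labelled KOs (edgeR adjusted p = 0.43 and 0.4). For COL3A1 it was -0.54 ± 1.03 in KOd and -1.63 ± 0.96 in cells labelled KOs (edgeR adjusted p = 0.74 and 0.2). Without the 3 libraries that stood apart the labelled KOs value turned to 1.43 and passed (adjusted p = 0.00035), and without labelled KOs 2D replicate A alone it was 0.78 (adjusted p = 0.3). Since the 3 libraries are the highest of their groups for COL3A1, that call is not separate support. Over the 7 members the median difference was -0.54 in KOd and -1.32 in cells labelled KOs, against 0.01 and -0.03 over all genes tested.

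Some members also differed between the pools, in 2D at shares no higher than those of all genes. In 3D COL1A1 was 2.44-fold higher in KOd than in cells labelled KOs (log2 fold change 1.29 ± 0.20, edgeR adjusted p = 6e-05), 1 of 7 members where 23.9% of all genes were higher. COL5A2, COL5A3 and COL27A1 were lower, 3 of 7 where 23.3% were lower, with log2 fold changes of -1.23 ± 0.18, -2.18 ± 0.28 and -0.87 ± 0.22 (edgeR adjusted p = 2.4e-05, 5.5e-06 and 0.0038). In 2D COL27A1 was higher in KOd (1.20 ± 0.25, edgeR adjusted p = 0.00046), 1 of 7 where 28.8% of all genes were higher. COL5A2 and COL3A1 were lower, 2 of 7 where 30.7% were lower, with -0.92 ± 0.18 and -1.96 ± 0.76 (edgeR adjusted p = 0.00023 and 0.033). The COL3A1 fold turned to 0.44 without labelled KOs 2D replicate A (adjusted p = 0.47).

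On the length-scaled measure the members added up to 326, 292 and 460 RPKM in KOd 3D, against 51.8, 51.9 and 42.0 in KOd 2D. The sums were 612, 620 and 634 RPKM in labelled KOs 3D, against 96.6, 46.1 and 46.0 in labelled KOs 2D. In wild-type cells they were 1364, 1236 and 2390 RPKM in 3D, 46.7 and 46.5 in adherent tumorsphere medium, and 155, 165 and 185 in 2D. Every tumorsphere sum lay above all adherent sums, and both sums in the medium group lay below those of wt 2D. By plain count share the members took 0.745 to 1.27% of a wt 3D library and 0.107 to 0.117% of a wt 2D library.

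The make-up of that sum also differed between groups. COL3A1 supplied 75.9 to 83.2% of it in KOd 3D and 83.6 to 84.1% in labelled KOs 3D, while COL1A1 supplied 2.76 to 4.35% and 0.81 to 0.908%. In wt 3D COL1A1 supplied 38.4 to 50% and COL3A1 32.6 to 49%. Per length, the wild-type spheres thus held COL1A1 and COL3A1 mRNA in like amounts, and the spheres of both pools mostly COL3A1 mRNA among the members. In 2D type V mRNAs led in the pools, where COL5A1 and COL5A2 supplied 55.4 to 60.6% and 26.3 to 32.3% in KOd 2D, and 46.3 to 50.7% and 39.1 to 46.1% in labelled KOs 2D. In wt 2D COL1A1 led with 42.2 to 54%, and COL5A1 followed with 27.9 to 36%.

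**Figure D4:**
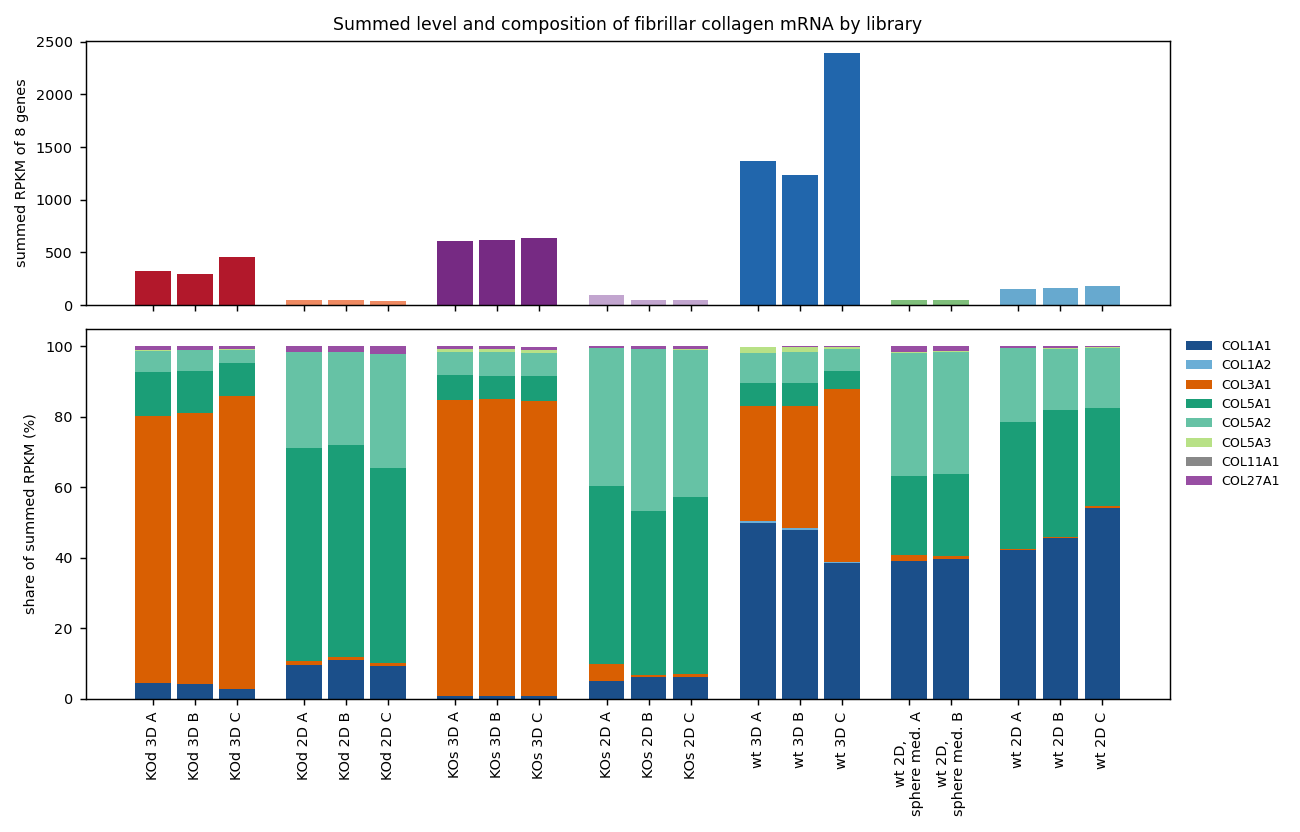
Summed RPKM of the 8 genes in each library (upper panel) and the share of each gene in that sum in percent (lower panel), with 1 bar a library and KOs groups as labelled. The wt 3D sums of 1236 to 2390 RPKM exceed all others, and COL3A1 makes up at least 75.9% of the sum in both pools' tumorspheres but at most 49% in wt 3D.

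Ratios between chains were also taken within each library. COL3A1 over COL1A1 per length was 17.4, 18.1 and 30.1 in KOd 3D, against 0.106, 0.0793 and 0.102 in KOd 2D. It was 104, 97.1 and 92.2 in labelled KOs 3D, against 0.974, 0.0948 and 0.144 in labelled KOs 2D. In wild-type cells it was 0.652, 0.722 and 1.28 in 3D, 0.0377 and 0.0194 in adherent tumorsphere medium, and 0.00958, 0.00792 and 0.0105 in 2D. Each 3D group lay above all adherent libraries except wt 3D, whose lower 2 libraries fell below labelled KOs 2D replicate A.

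The ratio of COL5A1 to COL5A2, which pair in the common type V molecule, moved less. It was 2.15, 2.06 and 2.42 in KOd 3D, against 2.23, 2.28 and 1.71 in KOd 2D, and 1.04, 0.963 and 1.08 in labelled KOs 3D, against 1.30, 1.00 and 1.21 in labelled KOs 2D. In wild-type cells it was 0.804, 0.726 and 0.857 in 3D, 0.648 and 0.669 in adherent tumorsphere medium, and 1.73, 2.05 and 1.63 in 2D. In wild-type cells COL5A2 exceeded COL5A1 in tumorsphere medium with or without attachment, and the 3D and 2D ranges overlapped in both pools.

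**Figure D5:**
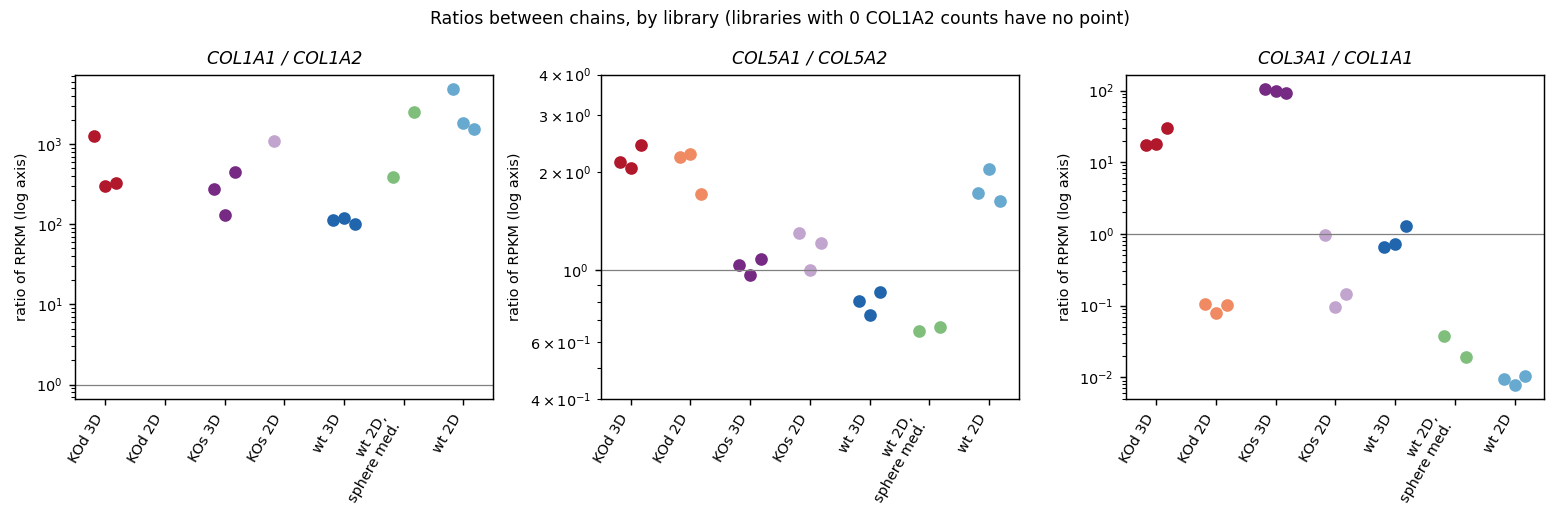
Ratios of RPKM between chains in each library (log axes): COL1A1 over COL1A2, COL5A1 over COL5A2 and COL3A1 over COL1A1, with a line at 1 and KOs groups as labelled. Libraries with 0 COL1A2 counts have no point in the left panel. The 5 wild-type libraries in tumorsphere medium are the ones with COL5A1 over COL5A2 between 0.648 and 0.857.

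The genes that follow the chains from ribosome to fibril were counted from lists of other pathway members. For comparison, with 3D against 2D 35.2% of all genes tested rose and 31.2% fell in KOd, 32.9% and 32.1% in cells labelled KOs, and 33.3% and 30.4% in wt. Against wt 3D the shares were 16.5% and 17.5% in KOd and 27.8% and 28.5% in cells labelled KOs, and against wt 2D they were 22.1% and 22.5%, and 27.7% and 25.5%. Of the other fibrillar genes, all 3 tested rose in wt 3D against 2D, and 2 of 3 rose in KOd and in cells labelled KOs. COL11A2, the partner of COL11A1 in type XI, had log2 fold changes of 6.51 ± 0.46 in KOd, 3.74 ± 0.46 in cells labelled KOs and 5.53 ± 0.40 in wt (edgeR adjusted p = 1.7e-09, 2.1e-06 and 2.4e-09). Of 17 hydroxylation and folding genes tested, 4 rose and 5 fell in KOd, 3 rose and 9 fell in cells labelled KOs, and 4 rose and 4 fell in wt with 3D against 2D, with medians of 0.03, -0.31 and 0.10. Against wt, 1 of the 17 rose and 11 fell in KOd 3D, and 0 rose and 12 fell in KOd 2D, with medians of -0.54 and -0.42. In cells labelled KOs 1 rose and 9 fell in 3D, and 5 rose and 5 fell in 2D. PLOD2, which hydroxylates lysines used in crosslinks, had log2 fold changes against wt 3D of -1.39 ± 0.09 in KOd and -2.05 ± 0.09 in cells labelled KOs (edgeR adjusted p = 3e-09 and 7.9e-12). With 3D against 2D it gave -0.91 in KOd, -0.31 in cells labelled KOs and -0.03 in wt (edgeR adjusted p = 1e-07, 0.0059 and 0.75).

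Of 8 genes of export from the endoplasmic reticulum, 1 rose and 5 fell in KOd 3D against 2D, 3 rose and 3 fell in cells labelled KOs, and 3 rose and 2 fell in wt. Against wt 3D, 1 rose and 3 fell in KOd, and 1 rose and 5 fell in cells labelled KOs. CREB3L1, a transcription factor of secretory cells, fell by 1.44 in KOd 3D against wt 3D (edgeR adjusted p = 5.8e-08). With 3D against 2D it gave -1.54 in KOd, -0.31 in cells labelled KOs and -0.65 in wt (edgeR adjusted p = 5.9e-09, 0.028 and 0.00011). In KOd 2D against wt 2D, 2 of the 8 export genes rose and 3 fell. MIA2 rose there by 1.63 (edgeR adjusted p = 1.3e-09), and its value of 0.22 in KOd 3D against wt 3D did not pass (adjusted p = 0.097). Of 8 propeptide-removal genes tested, 4 rose and 0 fell in KOd 3D against 2D, 4 rose and 2 fell in cells labelled KOs, and 5 rose and 2 fell in wt. PCOLCE, which enhances cleavage of the C-propeptide of types I and III, had log2 fold changes of 1.04 ± 0.26, 1.10 ± 0.26 and 3.09 ± 0.27 in these comparisons (edgeR adjusted p = 0.0018, 0.0011 and 3.4e-08). Against wt 3D, TLL1 of the same list gave 0.98 ± 0.23 in KOd and -3.16 ± 0.26 in cells labelled KOs (edgeR adjusted p = 0.0028 and 1.3e-08). Of 4 crosslinking genes tested, 0 rose and 3 fell in KOd 3D against 2D, 0 rose and 1 fell in cells labelled KOs, and 1 rose and 1 fell in wt. Against wt 3D, 0 rose and 3 fell in KOd, where 17.5% of all genes fell, and the counts were the same for labelled KOs 3D, where 28.5% fell. LOX, the lysyl oxidase that starts crosslinking, had log2 fold changes of -4.45 ± 0.36 and -5.21 ± 0.37 there (edgeR adjusted p = 3.6e-08 and 2.5e-09). In 2D its values were -2.47 ± 0.32 for KOd and -5.01 ± 0.38 for cells labelled KOs (edgeR adjusted p = 6.7e-06 and 9.9e-09). With 3D against 2D LOX gave -1.52 ± 0.35 in KOd, 0.25 ± 0.41 in cells labelled KOs and 0.45 ± 0.29 in wt (edgeR adjusted p = 0.001, 0.61 and 0.18).

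Of 13 fibril-associated collagens and small leucine-rich proteoglycans tested, 6 rose and 3 fell in KOd 3D against 2D, 10 rose and 1 fell in cells labelled KOs, and 10 rose and 2 fell in wt. The medians were 1.91, 2.92 and 3.98. COL12A1, which decorates type I fibrils, had log2 fold changes against wt 3D of -5.96 ± 0.40 in KOd and -4.66 ± 0.37 in cells labelled KOs (edgeR adjusted p = 4.3e-09 and 9.7e-09). Of 10 collagen receptors, 6 rose and 2 fell in KOd 3D against 2D, 8 rose and 1 fell in cells labelled KOs, and 5 rose and 1 fell in wt, where 35.2%, 32.9% and 33.3% of all genes rose. Of 6 fibril-degrading enzymes tested, 5 rose in KOd, 6 in cells labelled KOs and 5 in wt, and 0 fell in each. MMP14, a membrane-bound collagenase, had log2 fold changes of 3.82 ± 0.25, 3.44 ± 0.25 and 3.14 ± 0.24 (edgeR adjusted p = 6.5e-10, 3.5e-09 and 6.1e-09). Of 23 regulators of collagen genes, 10 rose and 11 fell in KOd, 12 rose and 6 fell in cells labelled KOs, and 11 rose and 4 fell in wt, where 31.2%, 32.1% and 30.4% of all genes fell.

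Markers of other cell types were read in the same libraries. The 8 fibroblast markers summed to 337 to 412 CPM in KOd 3D, against 79.8 to 80.9 in KOd 2D, and to 494 to 515 in labelled KOs 3D, against 98.9 to 231 in labelled KOs 2D. The sums were 1310 to 1670 CPM in wt 3D, 413 to 434 in adherent tumorsphere medium and 94.8 to 115 in wt 2D, so the sums moved with the collagens between 3D and 2D and between the tumorspheres of both pools and of wt. DCN on its own was lower in 3D, at 3.47 to 5.14 CPM in KOd 3D, against 29.4 to 38 in KOd 2D, and at 31.2 to 45.6 in wt 3D, against 59.3 to 71.4 in wt 2D. In cells labelled KOs it was higher, at 126 to 135 CPM in 3D, against 58.3 to 77.4 in 2D. In the medium group, where COL1A1, COL5A1 and COL5A2 fell, the sum was higher than in wt 2D and was mostly DCN, at 292 to 323 CPM. Of the 8 markers, 4 (FAP, DCN, LUM and DPT) are also in the pathway lists above. Most of each tumorsphere sum was PDGFRA and PDGFRB, while THY1 and PI16 were at 0 or at most 0.0732 CPM in any library. Within labelled KOs 2D the libraries ran from 35.9 to 121 CPM of PDGFRA. The 7 endothelial markers summed to 90.3 to 97.5 CPM in KOd 3D, 31.2 to 36.2 in labelled KOs 3D and 50.7 to 73.3 in wt 3D, against 7.49 to 42.2 over the 11 adherent libraries. Nearly all of each tumorsphere sum was PECAM1, and CLDN5 was at 0 in every library. KDR went the other way, at 0 to 0.214 CPM in KOd 3D, against 1.93 to 3.35 in KOd 2D. It read 0.116 to 0.25 CPM in labelled KOs 3D, against 3.76 to 29.1 in labelled KOs 2D. In wt it read 0 to 0.0336 CPM in 3D, against 3.76 to 8.83 in 2D. Leukocyte markers summed to 188 to 200 CPM in labelled KOs 3D, against 63.1 to 105 in labelled KOs 2D. They summed to 32.3 to 35.5 CPM in KOd 3D, against 42 to 50.2 in KOd 2D, and to 18.1 to 20.5 in wt 3D, 98.2 to 110 in adherent tumorsphere medium and 24.2 to 31.9 in wt 2D. CD68 made up most of the sum in labelled KOs 3D, at 183 to 194 CPM, and TYROBP was at 0 throughout. Osteoblast and chondrocyte markers, which cover cells rich in types I, XI and XXVII, summed to 12.4 to 57.4 CPM. Among them SOX9 read 16.4 to 20.5 CPM in KOd 3D, against 0.558 to 0.621 in KOd 2D. It read 9.7 to 10.8 in labelled KOs 3D, against 2.42 to 4.15 in labelled KOs 2D. In wt it read 18.2 to 23.4 in 3D, 0.772 to 1.38 in adherent tumorsphere medium and 0.745 to 0.952 in 2D. MATN3 was lower in 3D in each genotype, and RUNX2 was higher in 3D in wt and labelled KOs but lower in KOd. Luminal epithelial markers summed to 1320 to 1600 CPM in labelled KOs 2D, against 572 to 723 in wt 2D, and to 391 to 619 in the other groups. Nearly all of each luminal sum was KRT8 and KRT18. EPCAM, KRT19, CDH1 and ESRP1 were at most 0.897 CPM in any library, and GATA3 at most 14.4 CPM. The part of these markers in the collagen results was not tested.

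For each tested member the genes with the most similar pattern over the 7 groups were found by the mean absolute difference of log2 CPM, each gene centred on its own mean, among 11244 genes expressed at a mean log2 CPM of at least 2. COL1A1, which spanned 7.73 log2 units over the groups, was nearest to COL4A4 (0.97), MAGEC1 (0.98) and LOX (1.07). COL1A2 was nearest to COL13A1 (0.90), FBLIM1 (1.22) and S1PR3 (1.25). It held 0 to 9 counts in every library outside wt 3D, so its distances, also to other members, depend largely on the prior count of 2. For COL3A1 the nearest were the laminin chain gene LAMA4 (0.76), the chemerin receptor gene CMKLR1 (0.98) and the sulfatase gene SULF2 (1.06), and for COL5A3 the receptor gene NOTCH3 (1.04), CMKLR1 (1.05) and FEZ1 (1.21). COL5A1 and COL5A2 moved less and had closer companions, at 0.26 to 0.31 for DUSP18, ADAMTS15 and FSTL1 and at 0.23 to 0.33 for TCEAL9, IFNLR1 and GPR39. COL27A1 was nearest to RRAD (0.22), ARHGEF16 (0.25) and the pseudogene HERC2P2 (0.25), whose reads may be shared with near-identical copies. Among the members themselves, COL5A1 and COL5A2 were closest (0.58), followed by COL1A1 and COL1A2 (0.92). COL3A1 and COL5A1 were farthest apart (4.13). These distances are descriptions over 7 group means and carry no test.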

How the data were processed

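RNA of 20 SUM159PT libraries in 7 groups was sequenced from stranded TruSeq libraries, per the labels' protocols. The authors deposited 1 table of raw read counts per gene, with gene lengths. Per the submitters' processing notes, reads were aligned with STAR to hg38. The counting tool, annotation and strand setting are not given in the sources used here, so reads of overlapping antisense genes cannot be told apart from those of a member. All deposited counts were whole numbers, all count columns were matched to a sample by name, and 27740 of 27864 gene identifiers were matched to symbols. Members were matched by identifier, and the rule used no measured value. The members and all gene lists were chosen with earlier results of these data known. The level of 1 marker gene is not reported here.

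Counts were fitted with edgeR 4.0.16 (limma 3.58.1, R 4.3.3): filterByExpr, TMM factors, 1 coefficient a group over all 20 libraries and the quasi-likelihood test, with Benjamini-Hochberg adjustment over 16323 genes and a threshold of 0.05. The filter kept 7 of the 8 members and removed COL11A1. The biological coefficient of variation was 0.143, with 13 residual degrees of freedom. The SE of a log2 fold change is its size divided by the square root of F. With 26396964 to 43744817 counts a library, a count of 0 allows up to 3 counts. These floors and the 95% exact intervals cover counting error only. A floor covers that of the group with 0 counts, and the counts of the other group are taken as exact. For group means of log2 CPM the prior count was 2. Of each pathway list, the 2 genes with the smallest adjusted p in wt 3D against 2D, or in KOd 2D against wt 2D, could be named. For each member the 3 nearest genes are given.

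Same-lettered KOd 3D and wt 3D libraries deviated together from their group means (correlations of 0.21, 0.218 and 0.342 across genes for A, B and C), so letters were taken to pair these groups in an alternative fit. The main fit holds no block, so its values for KOd 3D against wt 3D do not use this pairing. In every other pair of groups of 3 libraries at least 1 letter lay at or under 0.1. The alternatives were other scalings and filters, DESeq2 1.42.0, limma-voom, fits of the compared groups alone, a replicate block, leaving out libraries and stricter thresholds. The model was tested on simulated data. Promoter sequences are from RefSeq (GRCh38.p14). Gene coordinates are from RefSeq on the same assembly, with strands from GENCODE, and were not in the deposited table.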

Additional observations from a re-analysis of the deposited data

Results flagged for a closer look

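The following differences are listed because the change from 2D to 3D differed between a pool and wt by an interaction term in the edgeR fit. Such calls were common among all genes tested. For KOd 14.7% of all genes had a lower response than in wt and 14.4% a higher one. For cells labelled KOs the shares were 19.0% and 17.9%. The response in KOd minus that in wt was -1.76 for COL1A1 and -1.62 for COL5A2 on the log2 scale, and over fits that leave out 1 library each it ran between -1.94 and -1.57 and between -1.71 and -1.48. The response in cells labelled KOs minus that in wt was -2.57 for COL1A1 (-2.76 to -2.28 over such fits), -1.32 for COL5A2 (-1.50 to -0.95) and 2.06 for COL27A1 (1.71 to 2.26). All 5 passed the test in each of these fits. The 2 contrasts share the wt libraries.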

How the results depend on the processing

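RLE factors and the strict filter changed no call or direction of a member. Scaled by library totals, values turned to 0.0309 for COL5A1 in KOd 2D against labelled KOs 2D and to 0.0139 for COL27A1 in the KOd response minus that of wt. For the KOd response minus that of wt, COL5A3 turned to 0.0362 with DESeq2 and to 0.074 with limma-voom, and COL27A1 to 0.0251 with limma-voom. These were values near 0 that did not pass. DESeq2 gave COL3A1 no adjusted p. The count of 5 members past the threshold in labelled KOs 2D against wt 2D became 3 with these 2 groups alone, and 3 with a log2 fold change of at least 1 required. Without the 3 libraries that stood apart, COL3A1 turned to -1.16 in labelled KOs 2D against wt 2D, 0.266 in labelled KOs 3D against wt 3D, 0.45 in KOd 2D against labelled KOs 2D and 1.43 in the labelled KOs response minus that of wt, of which the first and last passed. COL5A1 turned to 0.366 and 0.342 in the last 2 of these, of which the first passed (edgeR adjusted p = 0.0056 and 0.075). For COL3A1 and COL5A1 the libraries left out are the highest of their groups, so the spread of both genes is narrowed by construction.

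When 1 library was left out at a time, COL3A1 ran from -1.16 to 1.75 in labelled KOs 2D against wt 2D, from -0.63 to 0.24 in labelled KOs 3D against wt 3D and from -2.47 to 0.44 in KOd 2D against labelled KOs 2D. Its response minus that of wt ran from -0.85 to 0.0907 in KOd and from -2.13 to 0.78 in cells labelled KOs. COL5A1 ran from -0.34 to 0.36 in KOd 2D against labelled KOs 2D and from -0.59 to 0.11 in the labelled KOs response minus that of wt. The response of COL5A3 minus that of wt ran from -0.59 to 0.89 in KOd and from -0.0223 to 1.18 in cells labelled KOs, and that of COL27A1 in KOd from -0.31 to 0.19. With tumorsphere medium COL1A2 ran from -2.34 to 0.25 and COL27A1 from -0.0663 to 0.29. The number of members past the threshold ran from 5 to 7 in KOd 3D against 2D, 4 to 7 in labelled KOs 3D against 2D, 5 to 6 in KOd 3D and 4 to 6 in labelled KOs 2D against wt, and 4 to 5 in 3D and 2 to 4 in 2D for KOd against cells labelled KOs. It did not move in the other 7 comparisons.

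With the letters as a replicate block over all groups, COL3A1 in KOd 2D against labelled KOs 2D lost its call (-1.76, adjusted p = 0.057). With the block in KOd 3D and wt 3D alone, COL3A1 gained one (-1.12, adjusted p = 0.0023). The block changed no other call. COL1A1 in KOd 2D against labelled KOs 2D (0.48, adjusted p = 0.055) passed with library totals (0.64), without the filter (0.48) and with DESeq2 (0.46). COL5A3 passed there with DESeq2 (-1.77). Fitted with the compared groups alone, COL3A1 passed in KOd 3D against labelled KOs 3D (-0.86, adjusted p = 0.0019). With library totals the median of all genes shifted from 0.02 to 0.24 in labelled KOs 3D against 2D, where 6762 genes rose and 3565 fell, against 5367 and 5247 with TMM. The same scaling gave 4490 and 2842 against 3611 and 3669 in KOd 2D against wt 2D, 4199 and 1793 against 2689 and 2859 in KOd 3D against wt 3D, 6039 and 3538 against 4535 and 4655 in labelled KOs 3D against wt 3D, and 5711 and 3844 against 4704 and 5017 in KOd 2D against labelled KOs 2D. It gave 4333 and 1899 against 2917 and 3095 in the labelled KOs response minus that of wt. The causes of these changes were not tested. Depth limits COL1A2 and COL5A3 in adherent pools and COL11A1 in all groups.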
